A study of Sus scrofa with 74 samples.

Results

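The genes described here encode splicing factors and heterogeneous nuclear ribonucleoproteins (hnRNPs). They were chosen by symbol: every probe set that is not a control and that the array annotation gives to 1 gene whose symbol starts with HNRNP, SRSF, SFRS, SF3A, SF3B, SNRP, PRPF or U2AF, or is SF1, PRCC or DDX39B. This gave 59 genes read by 94 probe sets, of 23999 probe sets that are not controls. Signals came from M. longissimus dorsi, a fast-twitch loin muscle, sampled at slaughter in 74 animals of the F2 generation of a cross between the Duroc and Pietrain pig breeds (mean end weight 110 kg). Each animal was measured on 1 Affymetrix Porcine Genome Array. A probe set is a group of short oligonucleotides that reads 1 transcript. All animals belonged to a single untreated group, by the study's methods they were free of the RYR1 mutation that causes malignant hyperthermia and came from full-sib families, and family, sex, age and meat quality of each animal are not among the labels. Siblings are not independent, so the p values here, which treat each animal as independent, may be too small. The label numbers leave a gap between 33 and 60, and the 24 animals numbered 1 to 33 and the 50 numbered 60 to 114 are called the 2 blocks. The labels do not say what these numbers are, so a block may be a technical batch, and batch, litter and any other difference between the blocks cannot be told apart.

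Pre-mRNA is spliced by the spliceosome, which is built stepwise from small nuclear ribonucleoprotein particles (snRNPs). SF1 binds the branch point and the U2AF proteins bind the 3′ splice site, after which the SF3A and SF3B complexes anchor the U2 snRNP at the branch point and the PRPF proteins bring in and activate the tri-snRNP. The SNRP genes encode the Sm core proteins and proteins particular to the U1 and U2 particles. SR proteins (SRSF genes) bind exonic enhancers and mostly promote exon use, while hnRNPs coat the transcript and often oppose it, and several members of both classes control their own mRNA through alternative exons. DDX39B is a helicase of early spliceosome assembly and of mRNA export, and PRCC is a nuclear protein first known as a fusion partner of TFE3 in papillary renal cell carcinoma. No sequences are shown, because the tables used here hold none for these genes or probe sets.

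Values are signals scaled to the same trimmed mean on each array and taken to log2. Of the members, 81 probe sets of 56 genes passed the filter, which kept only the probe sets of highest median on the array for testing. The array level, the trimmed mean before scaling, was 87.1 ± 14.9 (SD, n = 24) in labels 1-33 and 130 ± 20.2 (SD, n = 50) in labels 60-114, and the blocks lay apart on the first principal component, which held 27.4% of the variance. The log2 difference between 3′ and 5′ control probe sets, a measure of RNA integrity, averaged 1.72 and 1.81 for actin, 0.15 and 0.20 for GAPDH and 0.56 and 0.75 for EF1A in labels 1-33 and 60-114. Muscle fibre markers were bright in all animals (9 probe sets tested, 2 higher and 1 lower in labels 60-114, median difference 0.01). Of the other markers, all 3 smooth muscle probe sets were lower (median -0.53), as were 3 of 8 for endothelium with 1 higher, 1 of 2 for erythroid cells and 2 of 5 for leukocytes with 2 higher. Of adipocyte markers 2 of 6 were higher and none lower, of fibroblast markers 3 of 5 were higher and 1 lower, and of nerve and Schwann markers 1 of 4 was higher. The mean of the smooth muscle markers ran from -0.24 to 1.29 around their overall mean in labels 1-33 and from -0.99 to 0.63 in labels 60-114, on the log2 scale. The part of array level, RNA integrity and cell makeup in the block differences was not tested, and in whole muscle fewer cells of a type and less RNA per cell cannot be told apart.

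The first comparison asked how far the splicing genes differed between the blocks. Of the 81 probe sets, 40 were higher in labels 60-114, 19 were lower and 22 did not pass an adjusted p of 0.05 (limma, Benjamini-Hochberg over all probe sets tested). Over all probe sets tested 61.5% passed, 36.1% higher and 25.4% lower, against 72.8%, 49.4% and 23.5% of the members. The median difference was 0.14 for the members and 0.06 over all (log2, labels 60-114 minus 1-33). Differences are relative to the rest of the array. In the values as deposited, which keep the array level, the median of all probe sets moved to 0.65 and all 81 members were above 0, so each member called lower here is a smaller rise than that of the array in those values. Quantile normalization gave 39 higher and 20 lower, beside 29.5% and 30.1% over all. The fit that took the array level as a covariate gave 27 higher and 17 lower, beside 34.3% and 23.2% over all. The counts by class were as follows. SR proteins had 14 of 23 higher and 2 lower, hnRNPs 10 of 24 and 8, SF3A and SF3B proteins 2 of 8 and 4, SNRP proteins 6 of 12 and 3, and PRPF proteins 6 of 9 and none. Probe sets of 1 gene are not independent in these counts.

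The filter used the median over all 74 animals. The probe sets DDX39B Ssc.12005.1.A1_at, SNRPF Ssc.5241.1.A1_at, SRSF10 Ssc.21960.1.S1_at and SRSF11 Ssc.23780.3.S1_a_at passed it although their medians in labels 1-33 were below the lowest median kept (7.28), and HNRNPUL1 Ssc.2835.2.S1_at passed although its median in labels 60-114 was. A probe set that passed through the block where it is high had to differ, so the differences of these 5 are given as values with no test. Of all tested probe sets with a median in labels 1-33 below the filter, 89.9% were called higher. The 5 are still included in the counts of calls, also in those by class, unless said otherwise. Among the other 76 members, 36 were higher and 18 lower, beside 31.9% and 27.1% of all probe sets with both block medians above the filter.

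**Figure D1:**
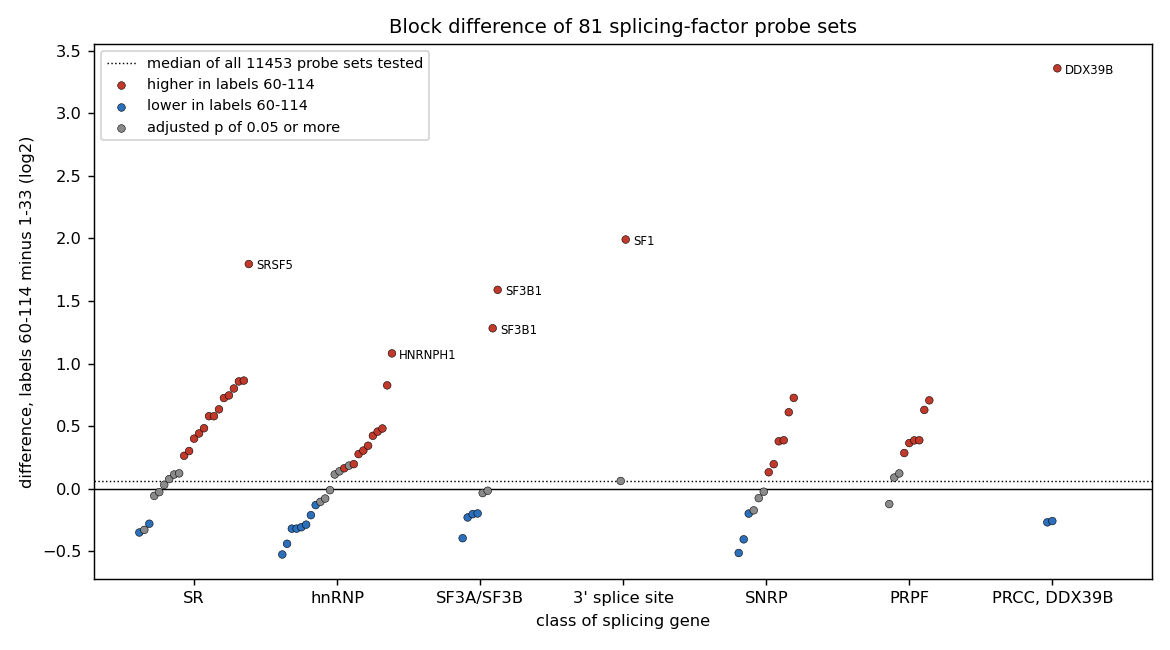
Difference between the blocks (log2, labels 60-114 minus 1-33) for each of the 81 tested probe sets, in columns by class and ordered within each column. Red points were higher and blue points lower at an adjusted p under 0.05 (limma), grey points did not pass, and the dotted line is the median of all probe sets tested (0.06). A probe set of DDX39B (3.36), SF1 (1.99), SRSF5 (1.79) and both probe sets of SF3B1 (1.59 and 1.28) stood highest among the tested probe sets, the first of them having passed the filter through labels 60-114 alone, and no PRPF probe set was called lower.

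Among the SR proteins the median difference was 0.40, and 8 of the 10 genes tested had a probe set higher in labels 60-114. SRSF5 had the largest difference of the class. Its signal was 7.25 to 10.19 (median 8.15) in labels 1-33 and 8.58 to 11.17 (median 10.04) in labels 60-114, a 3.47-fold difference (1.79 ± 0.12 (SE), adjusted p = 5.02e-22). The blocks overlapped, with 5 of 24 animals above the lowest of labels 60-114 and 17 of 50 above all 24. SRSF2, an SR protein that binds exonic enhancers, lay at 10.93 to 11.81 (median 11.35) and 11.48 to 12.74 (median 12.20), and 47 of 50 animals were above the highest of labels 1-33 (difference 0.86 ± 0.06 (SE), adjusted p = 1.99e-21). SRSF6 is read by 6 probe sets, and 4 of them were higher by 0.58 to 0.86. The highest of these, Ssc.9241.2.A1_a_at, lay at 7.23 to 8.78 (median 7.94) and 8.16 to 9.40 (median 8.92) (difference 0.86 ± 0.08 (SE), adjusted p = 2.15e-15). The SRSF6 probe set Ssc.17252.1.S1_at separated the blocks with no overlap, at 9.63 to 10.35 (median 9.99) and 10.36 to 11.27 (median 10.78). Only 2 members did so, against 0.733% of all probe sets tested without overlap in this direction and 0.0611% in the other.

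The other SR differences were smaller. SRSF7 was higher by 0.63 ± 0.08 (SE) and SRSF3 by 0.48 ± 0.07 (SE), with 35 and 37 of 50 animals above all of labels 1-33. SRSF1, the founding member of the family, was higher on 2 of its 3 probe sets (0.58 and 0.30) and had 0.08 on the third (adjusted p = 0.596). SRSF10 and SRSF11, which regulate exon choice, had 2 of 4 probe sets counted as higher each. The differences were 0.44 and 0.40 for SRSF10 and 0.80 and 0.26 for SRSF11. The probe sets with 0.44 (Ssc.21960.1.S1_at) and 0.80 (Ssc.23780.3.S1_a_at) passed the filter through 1 block alone. Their differences are therefore values with no test. With the array level as a covariate, Ssc.9463.1.S1_at (0.40 before) had -0.22 (adjusted p = 0.164). In that fit Ssc.17158.2.A1_at (0.26 before) turned lower (-0.45, adjusted p = 0.00601). After quantile normalization Ssc.21960.1.S1_at had 0.16. The lower calls were 1 probe set of SRSF6, Ssc.30743.1.S1_at, at 6.82 to 8.75 (median 8.01) and 6.80 to 8.66 (median 7.59) (-0.35 ± 0.11 (SE), adjusted p = 0.00546), and 1 of SRSF11, Ssc.17158.1.S1_at (-0.28 ± 0.08 (SE), adjusted p = 0.00097). Both overlapped widely between the blocks. SRSF4 (-0.06, adjusted p = 0.509) and SRSF9 (0.03, adjusted p = 0.68) did not pass, and the smallest difference was that of the SRSF11 probe set Ssc.23780.1.S1_at (-0.03 ± 0.07 SE). When the array level was a covariate, the median difference of the SR proteins was 0.11. In that fit 11 SR probe sets were higher, all among the 14, and 5 lower, 3 of them newly. SRSF1 on Ssc.7576.2.A1_at had 0.11 in that fit (adjusted p = 0.276).

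The hnRNPs went both ways, with 10 of 24 probe sets higher, 8 lower and a median difference of 0.13. HNRNPH1, which binds G-rich stretches near exons, had the largest difference. Its signal was 9.17 to 11.67 (median 11.13) in labels 1-33 and 10.93 to 12.69 (median 12.19) in labels 60-114 (2.12-fold, 1.08 ± 0.10 (SE), adjusted p = 8.49e-16). The overlap was slight, since 47 of 50 animals exceeded all 24. Its close relative HNRNPH2 was higher on both probe sets (0.83 and 0.42), while HNRNPF of the same subfamily was higher by 0.16 and HNRNPH3 had 0.18 (adjusted p = 0.12). HNRNPM was higher by 0.48 ± 0.08 (SE), both probe sets of HNRNPK, a poly(C)-binding protein, by 0.46 and 0.34, and HNRNPA1 by 0.30.

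The largest lower difference with a test among hnRNPs was that of HNRNPUL1, a relative of the nuclear scaffold protein HNRNPU. The probe set Ssc.2835.1.S1_at lay at 10.48 to 10.95 (median 10.73) in labels 1-33 and 9.67 to 10.82 (median 10.30) in labels 60-114 (-0.44 ± 0.05 (SE), adjusted p = 9.01e-12), and 45 of 50 animals were below all 24. The second, Ssc.2835.2.S1_at, differed by -0.53 ± 0.11 (SE) with more overlap. It is counted among the 8 lower but passed the filter through labels 1-33 alone, so no test is given. HNRNPR was lower on both probe sets (-0.32 and -0.31), as were HNRNPAB on its single one (-0.29 ± 0.06 (SE)), HNRNPD, an AU-rich element binding protein, on both (-0.21 and -0.13), and HNRNPA2B1 on 1 of 3. The smallest difference was -0.01 ± 0.07 (SE) on another HNRNPA2B1 probe set. Calls among hnRNPs in both directions depended on the array level. With it as a covariate the median was -0.06, 3 of the 10 higher and 4 of the 8 lower calls were kept, and 3 others were newly lower (HNRNPA3, HNRNPH3 and HNRNPA2B1 on Ssc.27885.1.S1_at). The lower calls lost were those of HNRNPAB (-0.17, adjusted p = 0.0682), HNRNPD (-0.05 and 0.08) and HNRNPA2B1 on Ssc.27382.1.S1_at (-0.15, adjusted p = 0.267). In the same fit HNRNPH1 was still higher (0.51, adjusted p = 0.000403), and HNRNPH2 (0.21, adjusted p = 0.198) and HNRNPM (0.03, adjusted p = 0.839) no longer passed.

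Within the SF3A and SF3B proteins 1 gene differed from the rest. SF3B1, the large subunit that clamps the branch point, was higher on both probe sets. On Ssc.12295.1.A1_at all 24 animals of labels 1-33 lay at 6.997 to 8.85 (median 8.24) and all 50 of labels 60-114 at 9.39 to 10.41 (median 9.79), with no overlap (3.01-fold, 1.59 ± 0.08 (SE), adjusted p = 7.89e-30). On Ssc.3000.1.S1_at the values were 9.44 to 10.80 (median 10.21) and 10.57 to 12.11 (median 11.61), and 49 of 50 animals exceeded all of labels 1-33 (1.28 ± 0.08 (SE), adjusted p = 3.38e-24). The other genes of the complexes were lower or not called. SF3A1 had a difference of -0.40 ± 0.12 (SE), SF3B4 had -0.23, SF3B2 -0.20 and SF3B5 -0.20, all with an adjusted p under 0.05, and SF3A3 (-0.03) and SF3B6 (-0.02) did not pass. After the array level was added as a covariate SF3B1 kept its direction (1.55 and 0.93), SF3A1 and SF3B4 turned to 0.27 and 0.18 and did not pass, and SF3B2 had -0.01. SF3B5 had -0.13 in that fit (adjusted p = 0.156), and SF3B6 was newly lower (-0.24, adjusted p = 0.00747).

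SF1, the branch point binding protein, had the second largest difference of the 81 tested probe sets. Its tested probe set lay at 3.76 to 9.22 (median 7.64) in labels 1-33 and 8.44 to 10.87 (median 9.30) in labels 60-114 (3.97-fold, 1.99 ± 0.20 (SE), adjusted p = 1.61e-14). The spread was wide in labels 1-33 (SD 1.20 against 0.54), where 2 animals were below 5, and 29 of 50 animals exceeded all 24. U2AF1L4, a relative of the small U2AF subunit, had 0.06 ± 0.06 (SE; adjusted p = 0.409), and U2AF2, the large subunit, was too dim to be tested. PRCC had 8.73 to 10.26 (median 9.69) and 8.41 to 10.09 (median 9.37), a difference of -0.27 ± 0.09 (SE), adjusted p = 0.00592, which was -0.02 with the array level as a covariate (adjusted p = 0.908). The 2 probe sets of DDX39B disagreed. The probe set of higher median, Ssc.11719.1.A1_at, was at 11.15 to 12.83 (median 12.25) and 11.49 to 12.43 (median 11.94) (-0.26 ± 0.07 (SE), adjusted p = 0.00151; 0.18 with the array level as a covariate, adjusted p = 0.0743). The other, Ssc.12005.1.A1_at, was at 1.07 to 6.96 (median 5.84) and 5.88 to 10.93 (median 9.22) (difference 3.36 ± 0.37 (SE)), and 38 of 50 animals exceeded all 24. It passed the filter through labels 60-114 alone, so no test is given.

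Of the SNRP genes, SNRPG, a ring protein of the Sm core, had the largest differences of the class in both directions. One probe set, Ssc.17917.1.A1_at, lay at 6.61 to 8.66 (median 7.98) and 7.85 to 9.09 (median 8.42) (0.73 ± 0.10 (SE), adjusted p = 3.88e-09). The other, Ssc.24174.1.S1_at, lay at 10.53 to 12.20 (median 11.30) and 10.16 to 11.57 (median 10.90) (-0.51 ± 0.09 (SE), adjusted p = 8.66e-07). The blocks overlapped on both. SNRPB2, a U2 protein, was higher by 0.61 ± 0.13 (SE) (0.04 with the array level as a covariate, adjusted p = 0.878), and SNRPD3 by 0.38 ± 0.06 (SE). SNRPF, which passed the filter through labels 60-114 alone, had 0.39 ± 0.08 (SE), and 0.15 after quantile normalization. SNRPN, an Sm protein transcribed from an imprinted locus, was lower on Ssc.3875.2.A1_at (-0.40 ± 0.07 (SE), 29 of 50 animals below all 24) and had -0.02 ± 0.09 (SE) on its second probe set. The U1 protein SNRPC differed by -0.20 ± 0.04 (SE), and SNRPA of the same particle had -0.17 (adjusted p = 0.0603). With the array level as a covariate SNRPC was still lower (-0.20, adjusted p = 0.00673), while SNRPA was higher (0.28, adjusted p = 0.0207).

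PRPF genes had 6 of 9 probe sets higher, none lower and a median difference of 0.36. PRPF39, a U1 snRNP protein, lay at 7.27 to 9.04 (median 8.20) and 7.89 to 9.73 (median 8.96) (0.71 ± 0.09 (SE), adjusted p = 4.54e-11). PRPF4, a tri-snRNP protein, lay at 7.75 to 8.94 (median 8.55) and 8.55 to 9.63 (median 9.14) (0.63 ± 0.07 (SE), adjusted p = 6.24e-13), and 39 of 50 animals exceeded all 24. The kinase PRPF4B (0.39), PRPF18 (0.39), PRPF3 (0.36) and PRPF38A (0.28) were higher, and PRPF19 (0.12), PRPF31 (0.09) and PRPF38B (-0.12) did not pass. In the fit with the array level PRPF4B had 0.05 (adjusted p = 0.639) and PRPF18 had 0.00446 (adjusted p = 0.976), and 1 probe set, that of PRPF38B, was lower (-0.61, adjusted p = 9.03e-05).

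**Figure D2:**
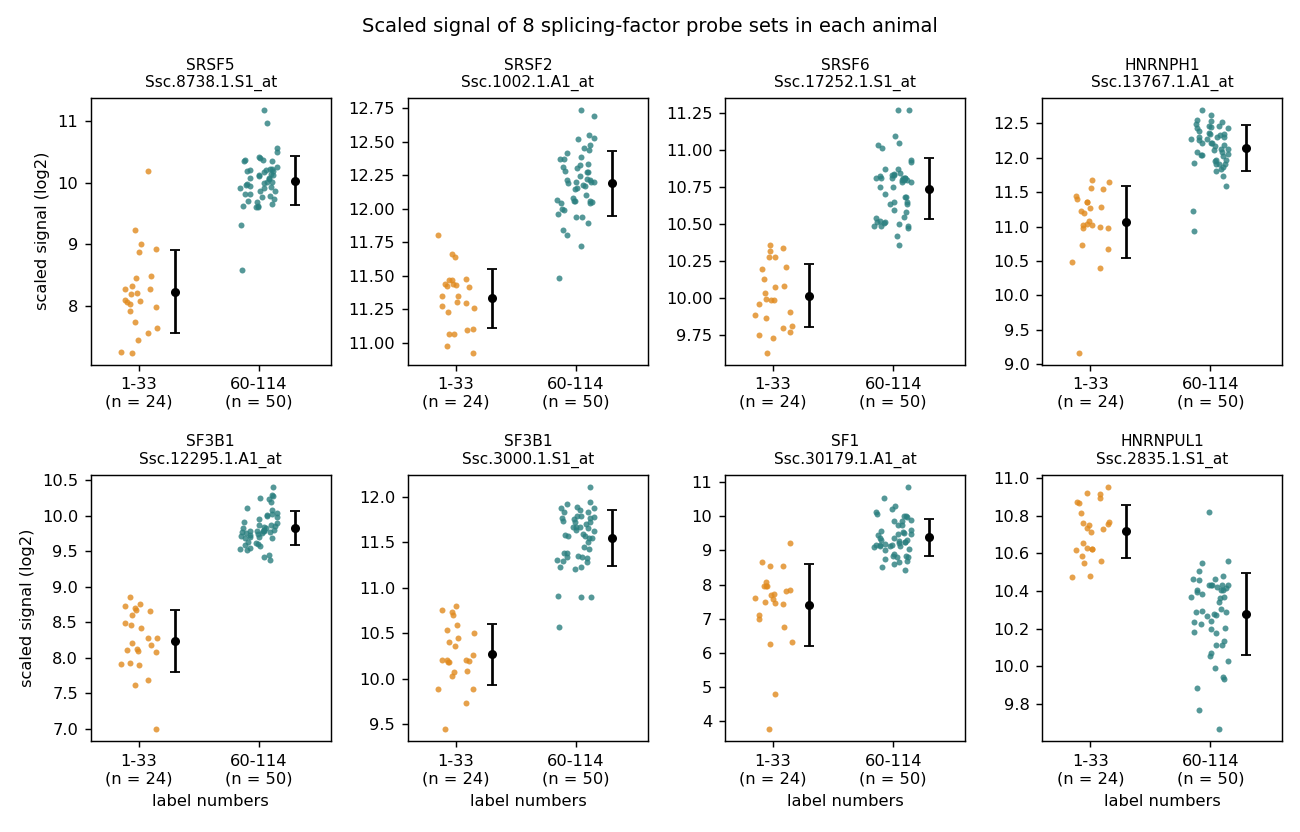
Scaled signal (log2) of 8 probe sets in every animal of labels 1-33 (orange, n = 24) and 60-114 (teal, n = 50), each on an axis of its own, with the mean and SD beside the points. SF3B1 Ssc.12295.1.A1_at and SRSF6 Ssc.17252.1.S1_at separated the blocks, SRSF5, SRSF2, HNRNPH1, SF1 and the second SF3B1 probe set were higher in labels 60-114 with some overlap, and HNRNPUL1 was lower.

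The other 13 probe sets were below the level needed for the test, among them all of HNRNPU, SRSF12 and U2AF2. Of members next to the threshold, the medians just below were 6.91 (U2AF2), 7.10 (SRSF9) and 7.15 (HNRNPU), and those just above were 7.30 (SRSF10), 7.49 (HNRNPUL1) and 7.50 (SRSF6). In a fit of all 23999 probe sets, HNRNPU, a nuclear matrix hnRNP, was higher in labels 60-114 (2.18 ± 0.17 (SE), adjusted p = 2.88e-18), with values from 2.46 to 6.72 (median 5.46) and from 6.22 to 8.11 (median 7.36). The dim probe sets of PRPF39 (1.84 ± 0.32 (SE), adjusted p = 1.9e-06) and SNRPA1 (1.64 ± 0.31 (SE), adjusted p = 6.38e-06) and 1 of SF1 (0.99 ± 0.16 (SE), adjusted p = 1.64e-07) were also higher. Of the remaining 9, 2 more were higher (PRPF38B, 0.39 ± 0.11 (SE), adjusted p = 0.00351, and SRSF9, 0.26 ± 0.10 (SE), adjusted p = 0.031), none was lower, and U2AF2 did not pass (0.32 ± 0.17 (SE), adjusted p = 0.117), and over all 23999 probe sets 30.7% were called higher and 13.9% lower.

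The next comparison asked whether probe sets of 1 gene gave the same account. There were 43 pairs from 15 genes, 15 of the pairs from SRSF6. Within labels 1-33, 13 of 43 pairs were positively correlated over animals and 1 negatively (permutation test, adjusted over 1862 same-gene pairs of the table and both blocks), and within labels 60-114, 20 and 2. Over all pairs 51.1% of pairs were positive and 0.967% negative in labels 1-33, and 68.4% and 0.913% in labels 60-114, against 30.2% and 46.5% positive here. The median r of the members' pairs was 0.17 and 0.21, beside 0.46 and 0.47 over all pairs. All 13 pairs of labels 1-33 were also positive in labels 60-114. Block differences differed within 27 of 43 pairs, near the 63.3% of the table, and in 8 pairs (18.6%, against 9.56% of the table) both probe sets were called in opposite directions. Those 8 pairs belonged to DDX39B, SNRPG, SRSF6 and SRSF11. Leaving out the pairs with a probe set that passed the filter through 1 block, 23 of 35 differed and 6 had opposite calls.

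Of the SRSF6 probe sets, 2 stood apart from the other 4. The probe sets Ssc.30743.1.S1_at and Ssc.7881.1.A1_at followed each other, with r = 0.67 (permutation p = 0.0005, adjusted p = 0.00128) and rho = 0.76 (permutation p = 4e-05, adjusted p = 0.000158) in labels 1-33 and r = 0.67 (permutation p = 1e-05, adjusted p = 4.07e-05) and rho = 0.73 (permutation p = 1e-05, adjusted p = 4.83e-05) in labels 60-114. In the scaled values they did not follow the other 4: the 8 correlations across were between -0.45 and 0.02 in labels 1-33 and between -0.22 and 0.09 in labels 60-114. This depended on the scaling, since in the values as deposited all 8 were above 0. They were then 0.02 to 0.48 in labels 1-33 and 0.33 to 0.49 in labels 60-114. The most negative in the scaled values, of Ssc.17252.1.S1_at with Ssc.7881.1.A1_at in labels 1-33, had r = -0.45 (permutation p = 0.0271, adjusted p = 0.0451) and rho = -0.41 (permutation p = 0.0473, adjusted p = 0.0781). Here a permutation p of 1e-05 is the smallest that the 100000 draws can give. The negative r was -0.59 without the 2 animals farthest from the median. In labels 60-114 the same pair had -0.22 (adjusted p = 0.171). Among 3 of those 4 (all but Ssc.17252.1.S1_at) r was 0.57 to 0.68 and 0.59 to 0.75, and Ssc.9241.1.A1_at with Ssc.9241.2.A1_a_at had r = 0.75 (permutation p = 1e-05, adjusted p = 4.07e-05) and rho = 0.77 (permutation p = 1e-05, adjusted p = 4.83e-05) in labels 60-114. The fourth, Ssc.17252.1.S1_at, was less close to these 3, with r of 0.21, 0.14 and 0.12 in labels 1-33, none of which passed, and 0.46, 0.40 and 0.21 in labels 60-114, of which the first and second passed. The block differences set the same 2 probe sets apart. Both were below 0 (-0.35 and -0.33, the latter with an adjusted p of 0.0835) and all 4 others were higher, and each of the 8 differences across was called, from 0.91 to 1.21 log2 units.

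**Figure D3:**
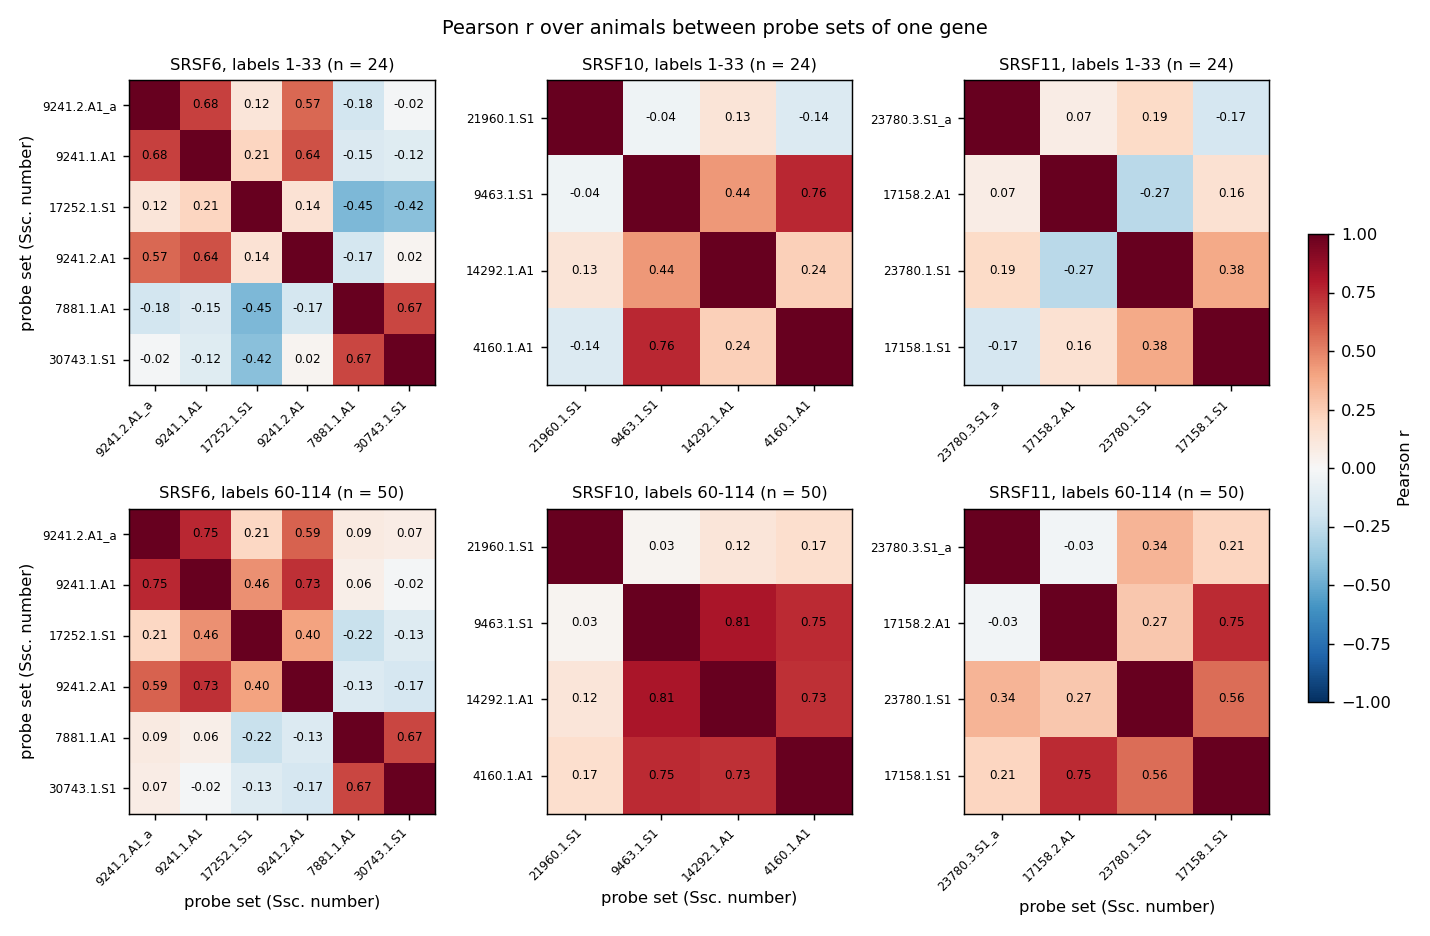
Pearson r over animals between the tested probe sets of SRSF6, SRSF10 and SRSF11, in labels 1-33 (top, n = 24) and 60-114 (bottom, n = 50), with probe sets ordered from the highest to the lowest block difference. In these scaled values the last 2 probe sets of SRSF6 correlated with each other (0.67 in both blocks) and not with the first 4. In SRSF10 the probe set 21960.1.S1 stood apart from the other 3 in labels 60-114.

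SRSF10 and SRSF11 were also uneven. In labels 60-114, 3 SRSF10 probe sets followed each other (0.81, 0.75 and 0.73), and the fourth, Ssc.21960.1.S1_at, had r of 0.03 to 0.17 with them. The pair Ssc.4160.1.A1_at and Ssc.9463.1.S1_at had r = 0.75 (permutation p = 1e-05, adjusted p = 4.07e-05) and rho = 0.75 (permutation p = 1e-05, adjusted p = 4.83e-05) in labels 60-114. In labels 1-33 its r of 0.76 was 0.28 without the 2 farthest animals, so it rested on them. The SRSF11 probe sets Ssc.17158.1.S1_at and Ssc.17158.2.A1_at correlated in labels 60-114 (0.75) and had 0.16 in labels 1-33, and their block differences were opposite (-0.28 and 0.26). With the array level as a covariate both were lower (-0.56 and -0.45), and their difference did not pass (adjusted p = 0.533). Of the 6 SRSF11 pairs 5 had unlike block differences, among them each pair with Ssc.23780.3.S1_a_at. That probe set passed the filter through labels 60-114 alone, so its pairs are values with no test. The widest was with Ssc.17158.1.S1_at (1.08 ± 0.15 SE). For SRSF1, Ssc.7576.2.A1_at and Ssc.7576.3.S1_at correlated in both blocks (0.53 and 0.68), and Ssc.7576.1.S1_at followed neither (r from -0.24 to 0.01), with all 3 pairs unlike in block difference.

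Among the hnRNPs, HNRNPD had the highest correlation, with r = 0.85 (permutation p = 1e-05, adjusted p = 4.07e-05) and rho = 0.86 (permutation p = 1e-05, adjusted p = 4.83e-05) in labels 60-114. In labels 1-33 it was 0.74, but 0.36 without the 2 farthest animals and rho = 0.38 (permutation p = 0.0682). HNRNPH2 had 0.71 and 0.60, with block differences that differed in size (0.40 ± 0.08 (SE), adjusted p = 2.48e-05), and HNRNPDL had 0.63 and 0.56. HNRNPA2B1 was split: Ssc.27382.1.S1_at and Ssc.27473.1.S1_at correlated (0.55 and 0.59), and both were negatively correlated with Ssc.27885.1.S1_at in labels 60-114 (r = -0.36 (permutation p = 0.0103, adjusted p = 0.0193) and rho = -0.29 (permutation p = 0.0393, adjusted p = 0.0668) for the first, r = -0.42 (permutation p = 0.00239, adjusted p = 0.00524) and rho = -0.38 (permutation p = 0.00677, adjusted p = 0.0144) for the second). Without the 2 farthest animals these were -0.23 and -0.36, and in labels 1-33 they were -0.21 and 0.17 and did not pass. The negative sign depended on the scaling: in the values as deposited both pairs had r = 0.32 in labels 60-114. With block means and array level removed, r over all animals was -0.20 and -0.17. HNRNPUL1 was lower on both probe sets although their correlations within blocks did not pass (0.24 and -0.09).

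SF3B1 gave the same account on both probe sets, with r of 0.58 and 0.46 and differences that were unlike only in size (0.31 ± 0.08 (SE), adjusted p = 0.000514). SNRPN probe sets correlated (0.72 and 0.47) but differed between the blocks by -0.02 and -0.40 (0.38 ± 0.07 (SE), adjusted p = 7.34e-06). The SNRPG probe sets, of opposite block difference, had 0.42 and 0.20, which did not pass, and a difference of 1.24 ± 0.11 (SE), adjusted p = 9.25e-16. The DDX39B probe sets, of which Ssc.12005.1.A1_at passed the filter through labels 60-114 alone, differed by 3.62 ± 0.38 (SE), with no test. These probe sets had r of -0.21 and -0.02. With the array level removed, the median r of the 43 pairs was 0.23, and with it as a covariate 32 pairs had unlike block differences, beside 49.1% of the table. Of the 27 pairs above, 22 were among them. The 5 lost were the SRSF11 pair Ssc.17158.1.S1_at and Ssc.17158.2.A1_at, the HNRNPH2 pair, the SRSF10 pair Ssc.14292.1.A1_at and Ssc.9463.1.S1_at, and the pairs of HNRNPA2B1 Ssc.27382.1.S1_at with each of the other 2.

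In 2 members the animals of a block fell into separate ranges. They were picked after their values were seen, and the following is a description with no test. On Ssc.16767.1.S1_at, the only HNRNPL probe set, 11 of 50 animals in labels 60-114 lay between 6.84 and 8.41 and the other 39 between 10.43 and 11.57, with an empty gap of 2.02 log2 units. In labels 1-33, 5 of 24 animals lay between 7.87 and 8.83 and 19 between 9.80 and 11.67, a gap of 0.96. HNRNPL binds CA-rich elements and regulates exon inclusion, and its difference between blocks did not pass (-0.08 ± 0.30 SE, adjusted p = 0.835), with both ranges filled in both blocks. On the DDX39B probe set Ssc.12005.1.A1_at, 12 of 50 animals in labels 60-114 lay between 5.88 and 6.89 and 38 between 8.69 and 10.93, and all 24 animals of labels 1-33 were at or below 6.96. The upper range was thus empty in labels 1-33. These gaps were the among the widest of all probe sets tested in labels 60-114 (ranks 4 and 5), counting gaps with at least 5 animals on each side, and 0.0873% of probe sets had a gap of 1 log2 unit or more. In labels 1-33, where 0.428% had one, the HNRNPL gap ranked 54. The second DDX39B probe set, Ssc.11719.1.A1_at, showed no such gap among the widest of the members.

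**Figure D4:**
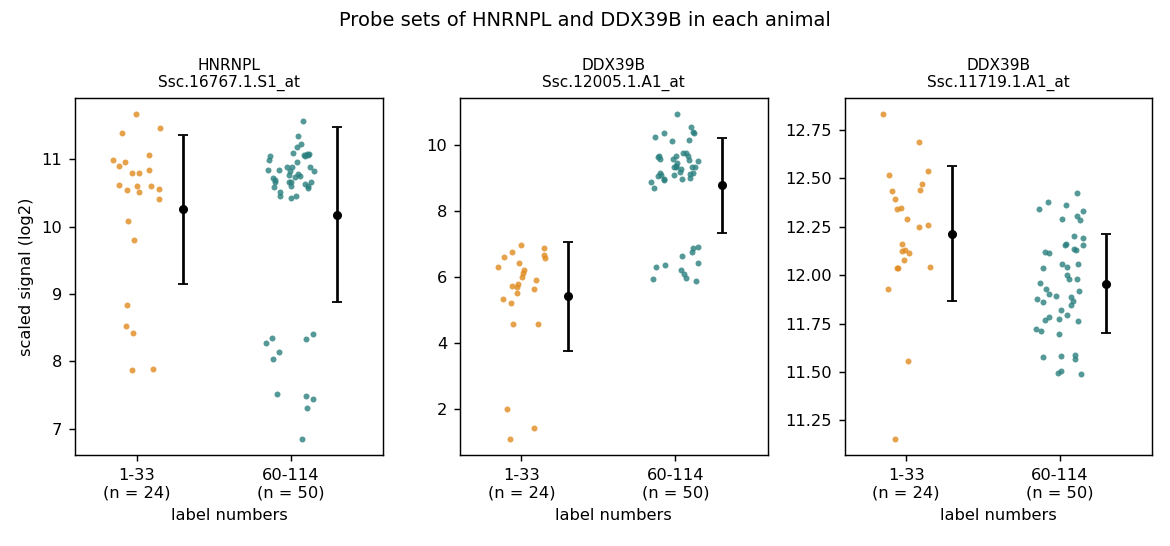
Scaled signal (log2) of the HNRNPL probe set and both DDX39B probe sets in every animal of labels 1-33 (orange, n = 24) and 60-114 (teal, n = 50), each on an axis of its own, with the mean and SD beside the points. HNRNPL had 5 and 11 animals in a lower range, DDX39B Ssc.12005.1.A1_at had 38 animals of labels 60-114 in a range that held no animal of labels 1-33, and DDX39B Ssc.11719.1.A1_at had no such gap.

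Co-expression within a class was given by the mean r over pairs of different genes, as a description with no test. Over all probe sets tested the mean r was 0.00 in each block. It was 0.11 in both blocks for the hnRNPs, and 0.04 in labels 1-33 and 0.15 in labels 60-114 for the SR proteins, where 78.0% of 223 pairs were positive. SR proteins and hnRNPs also went together, with a mean r of 0.08 and 0.12 over 552 pairs between the classes. The core classes did not: the mean r was -0.01 and 0.00 for SNRP, 0.00 in both blocks for SF3A and SF3B, and 0.00 and -0.01 for PRPF proteins. In the SF3 class the SF3B1 probe set Ssc.3000.1.S1_at had a mean r of -0.32 and -0.22 with the other genes of the class. The second SF3B1 probe set had -0.10 and -0.11, and SF3B6 had -0.17 and -0.08. These means per probe set, and the mean r between SR proteins and hnRNPs, were not taken with the array level removed. HNRNPM (0.08 and 0.16) and SF3B1 on Ssc.3000.1.S1_at (0.11 and 0.14) had the highest mean r with all members in labels 60-114, and SF3A1 the lowest (-0.08 and -0.15). The values of an animal share 1 array and its level. With the array level removed, the mean r was 0.09 and 0.06 for hnRNPs and 0.03 and 0.12 for SR proteins.

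The array level itself moved with many members inside the blocks, in a fit added after the data were seen. The level is also the divisor used in the scaling, so both sides of this fit share it. Of the 81 probe sets, 30 rose with the level and 15 fell (limma with block as covariate), beside 25.8% and 25.6% of all probe sets tested. The hnRNPs made up 13 of the 30, out of 24 tested, and SR proteins 9 of 23 with none falling. HNRNPR on Ssc.2292.1.A1_at rose per doubling of the level by 1.11 ± 0.12 (SE), adjusted p = 6.74e-12. HNRNPH3 (1.11 ± 0.16 (SE), adjusted p = 1.02e-07) and 3 of 4 SRSF10 probe sets (1.34, 1.06 and 0.85) rose as well. SF1 (-1.32 ± 0.36 (SE), adjusted p = 0.00174), SF3A1 (-1.14 ± 0.19 (SE), adjusted p = 1.07e-06) and DDX39B on Ssc.11719.1.A1_at (-0.75 ± 0.12 (SE), adjusted p = 2.3e-07) fell. Inside labels 1-33 alone 14 members rose and 2 fell, beside 11.4% and 5.01% of all, and inside labels 60-114 alone 27 rose and 11 fell, beside 22.1% and 22.0%. The block difference of HNRNPR on this probe set, -0.31, became -0.96 once the level was a covariate.

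**Figure D5:**
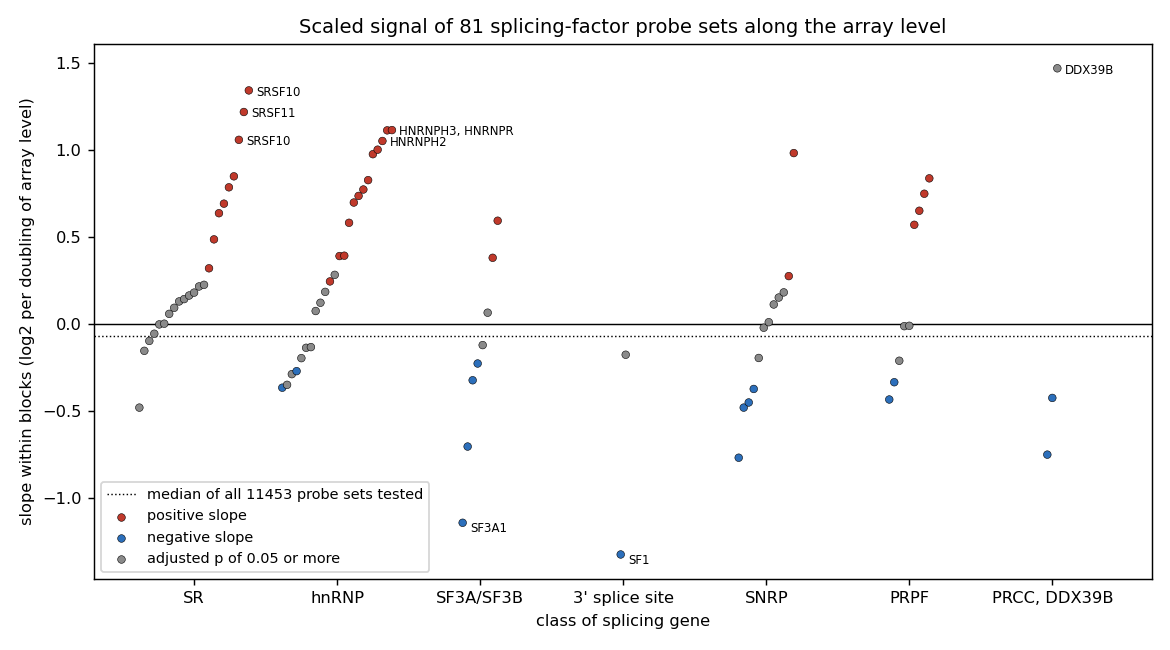
Slope of the scaled signal on the array level within blocks (log2 units per doubling of the level) for each of the 81 tested probe sets, by class. Red points had a positive and blue points a negative slope at an adjusted p under 0.05 (limma), grey points did not pass, and the dotted line is the median of all probe sets tested (-0.07). Most called hnRNP and SR slopes were positive, while SF1 (-1.32), SF3A1 (-1.14) and SNRPA (-0.77) were the most negative called slopes.

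PRCC, SF1 and DDX39B are the genes named singly in the choice of members, and every other tested probe set was fitted along each of them with block as covariate. Along PRCC 2 of 80 members rose and 1 fell, beside 2.71% and 1.54% of all probe sets tested. They were HNRNPA2B1 on Ssc.27382.1.S1_at (slope 0.33 ± 0.10 (SE), adjusted p = 0.0401), HNRNPD on Ssc.19878.3.S1_a_at (0.25 ± 0.07 (SE), adjusted p = 0.0413) and, falling, SRSF10 on Ssc.4160.1.A1_at (-0.56 ± 0.16 (SE), adjusted p = 0.0377). Neither with the array level as a covariate nor within either block did any member pass with limma, although 12, 7 (labels 1-33) and 16 (labels 60-114) had an unadjusted p under 0.05. Over all probe sets 0.114% were positive and 0.0437% negative with the array level as a covariate, and none within either block.

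Along SF1, 5 of 80 members rose and 19 fell, beside 15.2% and 14.4% of all. Those that fell were mostly hnRNPs (8) and SR proteins (6), with the steepest slopes for HNRNPR on Ssc.2292.1.A1_at (-0.22 ± 0.05 (SE), adjusted p = 0.00032), SRSF10 on Ssc.9463.1.S1_at (-0.22 ± 0.06 (SE), adjusted p = 0.00391) and Ssc.14292.1.A1_at (-0.20), HNRNPH2 on Ssc.3216.2.A1_at (-0.19) and SRSF11 on Ssc.17158.2.A1_at (-0.19). SF3A1 (0.21 ± 0.06 (SE), adjusted p = 0.00842), SF3B4 (0.19), SNRPN on Ssc.3875.1.S1_a_at (0.15), PRPF19 (0.12) and SNRPB (0.08) rose. SF1 itself fell along the array level, and with the level as a covariate 2 members rose and 4 fell, beside 7.19% and 4.74% of all. Within labels 1-33 no member passed with limma (11 had an unadjusted p under 0.05), beside 0.0961% of all. Within labels 60-114, 9 rose and 13 fell, beside 28.6% of all called in either direction. The slope of 1 member, SF3A1, differed between the blocks in the positive direction and none in the negative, beside 1.38% and 1.1% of all.

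Along DDX39B on Ssc.11719.1.A1_at, 12 of 79 members rose and 22 fell, beside 20.6% and 20.4% of all. The hnRNPs made up 11 of those that fell. HNRNPH2 on Ssc.3216.2.A1_at (-0.91 ± 0.15 (SE), adjusted p = 1.73e-06) and Ssc.3216.1.A1_at (-0.70), SRSF10 on Ssc.4160.1.A1_at (-0.79), SRSF11 on Ssc.17158.2.A1_at (-0.69) and PRPF38B (-0.68) fell most steeply, and SF3A1 (0.75 ± 0.17 (SE), adjusted p = 0.000328), SNRPG on Ssc.17917.1.A1_at (0.63), SNRPA (0.60), SF3B4 (0.52) and PRCC (0.42) rose. When the array level was added 3 rose and 2 fell, beside 3.24% and 1.14% of all. Within labels 1-33, 1 rose and 2 fell, beside 5.11% of all called in either direction, and within labels 60-114, 9 and 22, beside 37.6%. No slope of a member along DDX39B or PRCC differed between the blocks (limma, 5 and 2 with an unadjusted p under 0.05), beside 0.175% positive and 0.114% negative of all along DDX39B and none along PRCC. On Ssc.3216.2.A1_at, HNRNPH2 fell along DDX39B in each block taken alone (-1.05 and -0.79, adjusted p = 0.0285 and 0.000351) and with the level as a covariate (-0.61, adjusted p = 0.0353).

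Other genes of the pathway were followed in 3 lists. Of 48 tested probe sets for other spliceosome proteins 20 were higher in labels 60-114 and 14 lower, with a median difference of 0.05, beside 36.1% and 25.4% of all probe sets tested. The largest were LUC7L3 (1.64 ± 0.11), the Sm-like protein LSM6 (0.94 ± 0.10) and GEMIN5 (0.92 ± 0.11), and the lowest CWC27 (-1.06 ± 0.10), SART1 (-0.77 ± 0.16) and BUD31 (-0.70 ± 0.04), each with its SE. Of 57 for other splicing regulators 30 were higher and 10 lower (median 0.24). One probe set of PABPN1, the nuclear poly(A) binding protein (1.91 ± 0.09; its other 2 had -0.33, called lower, and 0.24, called higher), CLK1, a kinase of SR proteins (1.34 ± 0.13), and RBM5 (1.08 ± 0.07) were highest, and PCBP2 (-0.90 ± 0.14), PTBP3 (-0.75 ± 0.15) and CELF2 (-0.70 ± 0.08) lowest. Of 18 for mRNA export and the exon junction 11 were higher and 2 lower (median 0.24). They included both probe sets of the export receptor NXF1 (1.35 and 1.33) and RAE1 (0.62 ± 0.08), and NXT1 (-0.46 ± 0.06) and THOC5 (-0.20 ± 0.07) were lower. The LSM6, PABPN1 and second NXF1 probe sets had a mean in labels 1-33, and that of PCBP2 a mean in labels 60-114, below the lowest median kept, so their differences are values only. The other probe sets of PCBP2 (-0.18 and 0.05), CELF2 (-0.10 and 0.13), LSM6 (0.11) and THOC5 (0.20) did not pass. Those of GEMIN5 (0.78 and 0.50), SART1 (-0.68) and RBM5 (0.67) were called in the same direction as the probe sets named. The median over all probe sets tested was 0.06.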

How the data were processed

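RNA of 1 longissimus muscle sample from each of 74 animals was hybridised to 1 porcine array each. The deposited table holds 1 intensity per probe set and array on a linear scale. Per the labels' processing notes the submitters used GCOS 1.1.1, and the study's methods name scaling, present calls and the PLIER algorithm, but the sources used here do not say which of these gave the deposited intensities. Of 24123 probe sets, 124 controls were left out.

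Arrays were brought to a common trimmed mean of 500 (2% left out at each end), values under 1 were set to 1, and log2 was taken. The 11453 probe sets of highest median were kept (lowest median 7.28). Gene symbols came from the platform annotation, which gave 10069 probe sets 1 symbol, 198 several and 13732 none. All 94 members matched a RefSeq symbol. No 2 arrays were identical.

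Blocks were compared, and slopes along PRCC, SF1 and DDX39B fitted with block as covariate, with limma 3.58.1 in R 4.3.3 and Benjamini-Hochberg adjustment over all kept probe sets. Probe sets of 1 gene were correlated within blocks, with permutation p values from 100000 draws in Python 3.11.15 (numpy 2.4.6, scipy 1.17.1, pandas 2.3.3, numba 0.67.0; plots with matplotlib 3.10.9). Tests were two-sided, and the fits were tested on simulated data. The number of arrays limits the precision, and p values measure the spread between these animals.

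The members and gene lists were chosen with earlier results of these data known. In each class up to 3 called probe sets of largest difference in each direction and the 1 of smallest difference were named, with PRCC, SF1, DDX39B and the U2AF genes, the pairs of highest and lowest r and of unlike difference, the 5 steepest called slopes in each direction and the 3 largest called differences in each direction per pathway list. Others were named to complete a gene or class. Alternatives were the deposited values, quantile normalization, log2 of the value plus 16, all probe sets, fits without block or within each block, permuted blocks, leaving out the 4 animals of extreme array level and, added after seeing the data, the array level as slope, as covariate of pairs and classes, the gaps between animals, and counts without probe sets that passed the filter through 1 block.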

Additional observations from a re-analysis of the deposited data

Results flagged for a closer look

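SF3A1, a subunit of the U2 snRNP, rose more steeply along SF1 in labels 60-114 than in labels 1-33. The slope was 0.08 in labels 1-33 (n = 24) and 0.52 in labels 60-114 (n = 50), and the interaction with block was 0.44 (limma, adjusted p = 0.0486 over all probe sets). It was the single member of 80 whose slope along SF1 differed between the blocks, beside 1.38% of all probe sets with a positive and 1.1% with a negative interaction. SF1 ran from 3.76 to 9.22 in labels 1-33 and spread more widely there (SD 1.20 against 0.54). The fit was not repeated without its lowest animals. Both genes fell with the array level, and the part of the level in this difference was not tested.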

How the results depend on the processing

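No paired analysis was possible because the labels give a single group and each number names 1 animal. Leaving the array level in (values as deposited), 73 members were higher in labels 60-114 and 0 lower, and the differences called lower turned to 0.33 (DDX39B Ssc.11719.1.A1_at), 0.27 (HNRNPR Ssc.6689.1.S1_at), 0.15 and 0.061 (HNRNPUL1), 0.32 (PRCC), 0.19 (SF3A1), 0.38 (SF3B2), 0.36 (SF3B4), 0.39 (SNRPC), 0.073 (SNRPG Ssc.24174.1.S1_at), 0.18 (SNRPN Ssc.3875.2.A1_at), 0.31 (SRSF11 Ssc.17158.1.S1_at) and 0.24 (SRSF6 Ssc.30743.1.S1_at). With the array level as a covariate DDX39B had 0.18, SF3A1 0.27 and SF3B4 0.18. The median r of the 43 pairs was 0.63 and 0.62 as deposited, and the mean r above that of all probe sets was 0.30 and 0.28 for hnRNPs, 0.15 and 0.25 for SR proteins, 0.19 and 0.21 for PRPF proteins, 0.13 for SNRP proteins in labels 60-114 and 0.13 for SF3A and SF3B proteins in labels 1-33.

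Along PRCC the members rising and falling were 37 and 0 as deposited, 1 and 3 after quantile normalization, 6 and 19 without the block, and 0 and 0 with the array level or within either block. Along SF1 they were 0 and 1 as deposited, 31 and 14 without the block, 2 and 4 with the array level, 0 and 0 in labels 1-33, and 9 rose in labels 60-114 and 8 with log2 of the value plus 16. Along DDX39B 0 fell as deposited and 35 without the block, with the array level 3 rose and 2 fell, and in labels 1-33 1 and 2. Over 35 named differences, each under 7 alternatives, 215 combinations kept their side of the threshold and, where called at first, their direction. Of the rest, 16 reversed, 7 passed newly and 7 no longer passed, of which 6 with the array level as a covariate and 1 (SNRPF) after quantile normalization. A change of sign was counted as reversed only for a difference called at first. The cause of these changes was not tested. The number of arrays limits the precision, and 13 members were too dim to be tested.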
